A study of Saccharomyces cerevisiae with 180 samples.

Results

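The 9 genes described here are the budding yeast genes of pyrimidine nucleotide synthesis URA1, URA2, URA3, URA4, URA5, URA6, URA7 and URA10, together with PPR1, the gene of a transcriptional activator of part of the pathway. They were chosen by gene symbol and are 9 of the 5605 genes with a named probe, each read by 1 probe. Transcripts of 90 cultures were measured on 180 arrays with 2 colours, always beside the same reference RNA, a pool of the laboratory strain BY4716, and every culture had a pair of arrays of opposite dye. There were 2 cultures of BY4716, 2 of RM11, a haploid derivative of a vineyard isolate, and 86 haploid segregants of a cross between BY4716 and RM11-1a. RM11-1a is treated here as identical to the RM11 of the parental labels. BY4716 is of mating type alpha with LYS2 deleted, whereas RM11 is of mating type a without URA3, LEU2 and HO. RM11 therefore cannot complete the synthesis of uridine monophosphate from glutamine, bicarbonate and aspartate, and the segregants carry these deletions in mixed combinations. Growth medium and supplements are not given in the sources used here. The series is about regulatory variation that acts in trans, and the pyrimidine genes allow the deletion of 1 enzyme to be set beside the transcripts of the others.

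Yeast builds uridine monophosphate from glutamine, bicarbonate and aspartate. Ura2 carries out the opening steps and is inhibited by uridine triphosphate, Ura4 (dihydroorotase) and Ura1 (dihydroorotate dehydrogenase) form orotate, the isozymes Ura5 and Ura10 attach the phosphoribosyl group, and Ura3 (orotidine monophosphate decarboxylase) completes the nucleotide. Ura6 then phosphorylates it, and Ura7 makes cytidine triphosphate. Ppr1, a zinc-cluster protein, activates URA1, URA3 and URA4 when the intermediates dihydroorotate and orotate accumulate, while URA2 is repressed by the end product.

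A value is the deposited log ratio of a culture over the pool, read as log2 and averaged over both arrays of the culture, so 0 is the level of the BY4716 pool. The base of the logarithm is not given in the sources used here. Read in base 2, the lowest value means a 2482-fold difference. Read as a natural logarithm it would mean 78991-fold, more than the 65536 steps of a 16-bit image. Ratios compare a gene between cultures and give no order of level among genes. An array held 3769 to 6570 values, and the number of arrays limits the precision, since intensities were not used here. Across genes, both arrays of a culture had an r of 0.838 and 0.905 in RM11, of 0.435 to 0.907 in the segregants, and of 0.0219 and 0.123 in BY4716, the strain of the pool. Of 10 strain marker genes, 9 could be checked and 9 went the way the genotypes require. These markers set the direction of the ratio. LYS2 had no value in BY4716, the strain that lacks it.

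URA3 itself checks the labels. Its log2 ratio was -0.07 and -0.01 in the BY4716 cultures and -5.22 and -4.10 in the RM11 cultures. Among the 86 segregants the values fell into separate clusters, and a division at -2.5 put 44 below, from -6.84 to -3.66 with a median of -5.04, and 42 above, from -2.09 to 0.39 with a median of 0.10. The labels give no genotype for any segregant, so these groups are classes of URA3 signal, and URA3 is not tested between them. The 2 segregants just below the division had values of -3.92 and -3.66, and the 2 just above had -2.09 and -0.35. The value of -2.09 belonged to segregant 27, whose 2 arrays read 0.05 and -4.23. Those arrays also differed widely in URA1, with 3.36 and 0.16, but read 1.39 and 1.67 in URA4 and 1.08 and 1.12 in URA2. Segregant 27 therefore goes against its class in URA4, and its weight is given beside the results that rest on it.

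The first comparison asked which of these transcripts differ between the parents. The genes of the early enzymes were higher in RM11. URA1 had log2 ratios of -0.12 and -0.10 in BY4716 and of 2.73 and 3.11 in RM11. URA4 had -0.22 and -0.11 in BY4716 and 1.17 and 1.48 in RM11, and URA2 had -0.06 and -0.02 against 1.15 and 1.19. For these 3 genes both RM11 cultures lay far above both BY4716 cultures, and the gap between strains was several times the gap between cultures of a strain. By limma over 3256 genes with Benjamini-Hochberg adjustment, URA1 was 8.15-fold higher in RM11, a difference of 3.03 on the log2 scale (SE 0.14, adjusted p = 0.000189). URA4 was 2.81-fold higher, a log2 difference of 1.49 (SE 0.13, adjusted p = 0.00127), and URA2 was 2.31-fold higher, a log2 difference of 1.21 (SE 0.08, adjusted p = 0.000541). Of all genes tested, 591 or 18.2% were called higher in RM11 and 278 lower. Labels name the parental RNA sources as independent cultures, and p-values measure the spread between these cultures.

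The genes of the later steps moved less. URA5, the main orotate phosphoribosyltransferase gene, read -0.21 and -0.17 in BY4716 and 0.15 and 0.36 in RM11, a log2 difference of 0.45 (SE 0.10, limma adjusted p = 0.0299). URA6, the uridylate kinase gene, read -0.20 in both BY4716 cultures and 0.07 and 0.16 in RM11, a log2 difference of 0.32 (SE 0.08, adjusted p = 0.0401). Neither call held without BY4716 culture 1, where the adjusted p was 0.267 for URA5 and 0.329 for URA6, or without BY4716 culture 2, where it was 0.208 and 0.303. With the Cy3-titled arrays alone it was 0.0609 for URA5 and 0.102 for URA6. The call of URA6 was also lost with the Cy5-titled arrays alone (adjusted p = 0.0532), with median centring (0.0571), with genes read on at least 1 array a culture (0.0624) and with the culture number as a block (0.0569). URA7, the CTP synthase gene, read -0.43 and -0.42 in BY4716 and -0.49 and -0.13 in RM11, so the strains overlapped, and the log2 difference of 0.12 (SE 0.13, adjusted p = 0.533) was not called. Without RM11 culture 1 that difference was 0.30 with an adjusted p of 0.00683, and under quantile normalization it was 0.56 with an adjusted p of 0.0216. URA10, the minor isozyme gene, read 0.00 and, from 1 array, 0.11 in BY4716, while the RM11 cultures differed widely at 1.40 and 0.22. The missing array kept URA10 out of the test. When genes with at least 1 array a culture were admitted, its log2 difference was 0.76 (SE 0.39, adjusted p = 0.232).

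PPR1 did not differ between the parents beyond the spread of the cultures. It read 0.04 and -0.06 in BY4716 and -0.04 and -0.06 in RM11, a log2 difference of -0.04 (SE 0.08, adjusted p = 0.731). The groups overlapped fully. In all, 5 of the 8 members tested were called higher in RM11, against 591 or 18.2% of all genes. Of these 5, URA5 and URA6 lost their calls in several alternatives, as given above. URA3, which RM11 lacks, was the member called lower, with a log2 difference of -4.62 (SE 0.35, adjusted p = 0.000948). Genes of other lists also moved between the parents. Of 9 branched-chain synthesis genes, 9 were called higher in RM11, which lacks LEU2. Of 13 general stress genes 6 were called higher and 2 lower, and of 4 arginine synthesis genes 2 were called lower and 0 higher. Strain and growth cannot be told apart in these differences. The part of these genes in the differences of the pyrimidine genes was not tested.

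The BY4716 cultures differed from the pool of their own strain by less than the test could call. No gene of 3256 was called, or 0%, and 616 had an unadjusted p under 0.05 in limma. The largest member difference was that of URA7, at -0.43 (SE 0.09, adjusted p = 0.190), followed by URA6 at -0.20 (adjusted p = 0.199) and URA5 at -0.19 (adjusted p = 0.247). Under quantile normalization, and without either RM11 culture, these 3 genes were called lower than the pool, with adjusted p from 1.29e-11 to 0.0319, and URA4 was called too without either RM11 culture (adjusted p = 0.0159 and 0.00991). These tests leave out the spread of the pool, which is 1 sample.

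The second comparison asked whether the transcripts vary among segregants beyond repeat cultures of a parent. A one-sided F test called 1908 of 3255 genes, or 58.6%. Among the members, URA3 had a segregant SD of 2.60 against an error SD of 0.355 between cultures (adjusted p = 0.00325). RM11 lacks URA3, so the cross fixed that outcome in advance, and it says nothing about regulation. URA1 followed with an SD of 1.39 against 0.141 (adjusted p = 0.00185), then URA4 with 0.699 against 0.127 (adjusted p = 0.00616) and URA2 with 0.484 against 0.0775 (adjusted p = 0.00442). URA7 had an SD of 0.477 against 0.134 (adjusted p = 0.0181), although it was not called between the parents. The SD was 0.243 for URA6 (adjusted p = 0.0265) and 0.190 for PPR1 (adjusted p = 0.0498). URA5, with 0.225, was not called (adjusted p = 0.0529), and URA10, with an SD of 0.978, lacked the parental arrays for the test. The median SD of the genes tested was 0.252. The error SD rests on 2 cultures a parent and may understate the noise. An SD of the culture mean, taken from the gaps between arrays over all cultures, was 0.403 for URA1, 0.492 for URA3 and 0.189 for URA2. It was 0.123 for URA6 against an error SD of 0.0801, and 0.0855 for PPR1 against 0.0822. These 5 values are above the error SD, while those of URA4, URA5 and URA7 are below it. When either BY4716 culture was left out, URA1 and URA3 were still called, but URA2, URA4, URA6, URA7 and PPR1 were not, with adjusted p from 0.0532 for URA4 to 0.235 for PPR1. On Cy3-titled arrays alone, URA6 (adjusted p = 0.0630), URA7 (adjusted p = 0.0534) and PPR1 (adjusted p = 0.194) were not called, nor was PPR1 with median centring (adjusted p = 0.0538) or quantile normalization (adjusted p = 0.0553). URA5 was called on Cy5-titled arrays alone (adjusted p = 0.0304) and among genes with a value in every segregant (adjusted p = 0.0496). Without either RM11 culture, URA5 was called too, with adjusted p of 5.36e-85 and 4.61e-10.

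**Figure D1:**
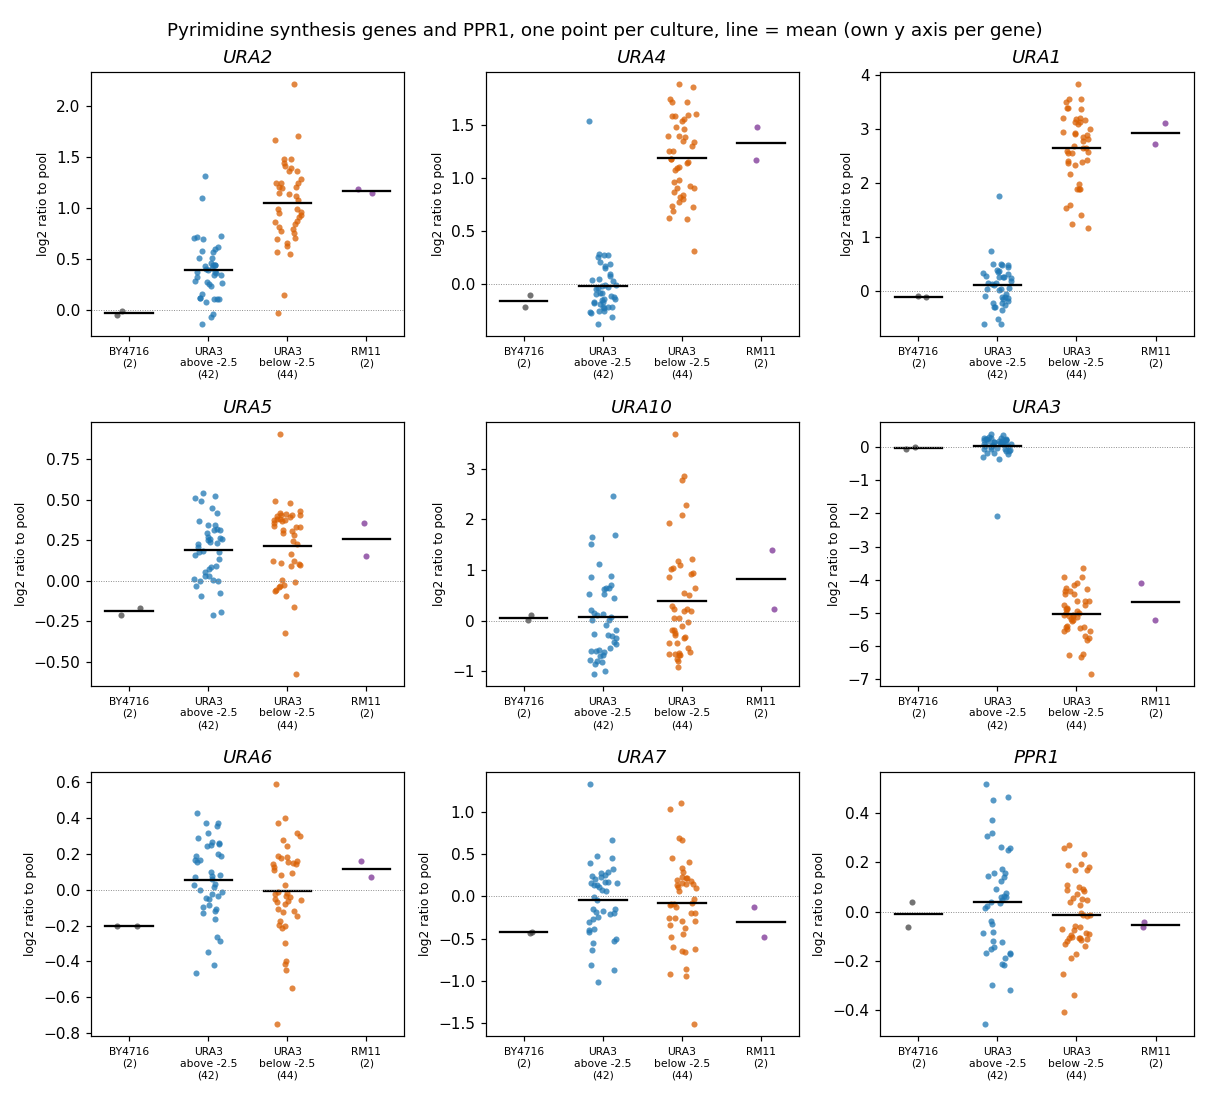
Log2 ratio to the BY4716 pool of each member (own y axis a panel) by group on the x axis, with a point for each culture and a line at the mean. URA1, URA4 and URA2 are high in RM11 and in segregants with URA3 below -2.5, while the other members other than URA3 overlap between the segregant classes.

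With 86 segregants set against 2 cultures a parent, some values beyond the parental cultures are likely for any gene. They were found in every member. For URA1, 13 of 86 segregants lay above the highest parental culture and 12 below the lowest. For URA4 these counts were 12 and 7, and for URA2 they were 18 and 2 of 83 segregants with a value. URA7 ranged from -1.52 to 1.33, with 49 segregants above the highest parental culture and 15 below the lowest. URA10 had the widest range after URA3, from -1.06 to 3.69, with 10 segregants above and 41 below. PPR1 ranged only from -0.46 to 0.52, but its parental values span little, so 39 segregants were above them and 34 below. With 2 cultures a parent, the parental range is itself poorly known, and the same counts were not made over all genes.

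The third comparison set segregants with a URA3 value below -2.5 against those above it. URA1, URA4 and URA2 rose in the class with low URA3, and no other member was called. URA1 ranged from 1.16 to 3.84 with a median of 2.73 in the 44 segregants below, and from -0.61 to 1.76 with a median of 0.11 in the 42 above. The highest value above was that of segregant 27, and without it the highest was 0.74, so the classes did not overlap. By limma over 5551 genes, the difference of URA1 was 2.54 on the log2 scale, or 5.83-fold (SE 0.12, 95% interval 2.31 to 2.78, adjusted p = 4.26e-33).

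URA4 ranged from 0.31 to 1.89 with a median of 1.17 below, and from -0.38 to 1.53 with a median of -0.09 above. The value of 1.53 was again that of segregant 27, and without it the highest was 0.28, so that the classes came close but did not overlap. The log2 difference was 1.21, or 2.32-fold (SE 0.07, 95% interval 1.07 to 1.36, limma adjusted p = 3.15e-25). URA2 ranged from -0.03 to 2.22 with a median of 1.03 in 42 segregants below, and from -0.14 to 1.32 with a median of 0.37 in 41 above. These classes overlapped, and the log2 difference was 0.66, or 1.58-fold (SE 0.08, 95% interval 0.51 to 0.81, adjusted p = 5.57e-10).

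Of all 5551 genes, 33 or 0.594% were called higher in the class with low URA3 and 9 lower, with 573 at an unadjusted p under 0.05, so 3 of 8 members tested stand beside a small background. Among all called genes, 4 had a difference over 1 on the log2 scale, and 2 of them were URA1 and URA4. With every segregant included, 0 genes had classes without overlap. Without segregant 27 there were 3, or 0.054% of 5551, and they were URA1, URA4 and RIB4. The differences were called under every alternative tried, from 2.44 to 2.70 for URA1, 1.12 to 1.38 for URA4 and 0.62 to 0.71 for URA2 on the log2 scale.

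No gene of the later steps was called. URA5 had a median of 0.30 below and 0.22 above, and the log2 difference was 0.02 (SE 0.05, 95% interval -0.07 to 0.12, adjusted p = 0.929). For URA6 the medians were -0.02 and 0.06, with a difference of -0.06 (95% interval -0.17 to 0.04, adjusted p = 0.725), and for URA7 they were -0.08 and 0.03, with a difference of -0.04 (95% interval -0.24 to 0.16, adjusted p = 0.948). URA10 reached 3.69 below and 2.46 above, with medians of 0.12 and -0.04. Its difference of 0.32 had a wide 95% interval of -0.09 to 0.73 (adjusted p = 0.607). PPR1 had medians of -0.02 and 0.04, and its difference of -0.05 had a 95% interval of -0.13 to 0.03 (adjusted p = 0.712). The activator transcript therefore showed no called change in the class in which URA1 and URA4 were raised.

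**Figure D2:**
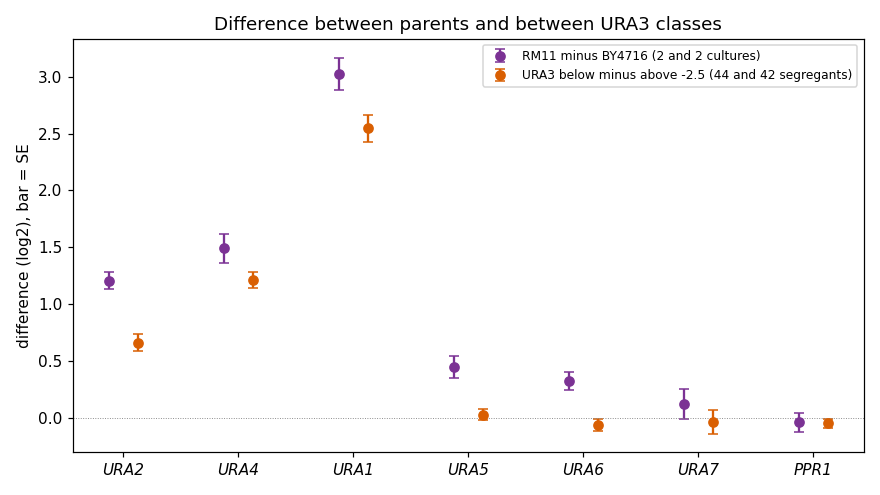
Log2 difference of RM11 minus BY4716 (2 and 2 cultures) and of segregants with URA3 below minus above -2.5 (44 and 42 segregants) for each member on the x axis, with bars for the SE. URA1 differs by 3.03 and 2.54, URA4 by 1.49 and 1.21 and URA2 by 1.21 and 0.66, while URA5 differs by 0.45 between parents and 0.02 between classes.

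Set against the difference between parents, the class difference was 84.1% as large for URA1 and 81.3% for URA4, but 54.6% for URA2 and 5.47% for URA5. The parental values rest on 2 cultures a strain. In a fit of all 90 cultures, the class with low URA3 differed from RM11 in URA1 by -0.27 on the log2 scale (SE 0.39, 95% interval -1.04 to 0.51, adjusted p = 0.937). The same difference was -0.13 for URA4 (95% interval -0.62 to 0.35, adjusted p = 0.957) and -0.12 for URA2 (95% interval -0.62 to 0.38, adjusted p = 0.973). No member was among the 48 of 3253 genes, or 1.48%, called in that contrast. The class with URA3 above -2.5 differed from BY4716 by 0.22 in URA1 (SE 0.39, 95% interval -0.56 to 0.99, adjusted p = 0.891) and by 0.14 in URA4 (95% interval -0.34 to 0.63, adjusted p = 0.888). For URA2 the difference was 0.43 (95% interval -0.07 to 0.93, adjusted p = 0.774), and for URA5 it was 0.38 (95% interval 0.06 to 0.70, adjusted p = 0.774). Under quantile normalization URA5 was called, at 0.49 (adjusted p = 0.0362). That contrast called 0 of 3253 genes, or 0%, with 187 at an unadjusted p under 0.05 in limma. This fit shares 1 estimate of the spread between the parental cultures and the segregants, which differ in genotype. The intervals are wide, and none of these comparisons shows equal levels.

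**Figure D3:**
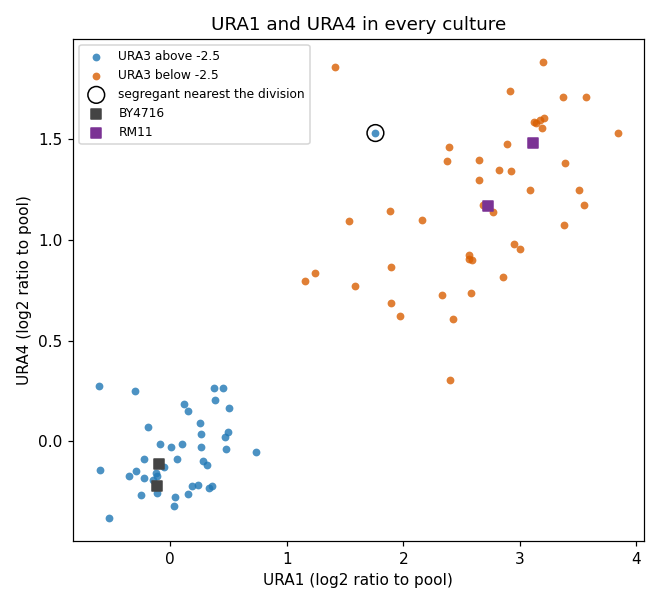
URA4 against URA1 in every culture, both as log2 ratio to the pool, with segregants coloured by URA3 class and parents as squares. The low and high groups separate on both axes, and segregant 27 (ringed, 1.76 and 1.53), classed above -2.5, lies with the segregants below.

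URA1 also carried the most conflicts between the 2 arrays of a culture among the members. The arrays differed by over 2 on the log2 scale in 5 of 90 cultures for URA1, in 4 of 89 for URA3, in 2 of 85 for URA10 and in 1 of 77 for URA2, with 0 in the other members. Over all genes this held for 1134 of 460136 pairs of values, or 0.246%, and 41 genes had at least as many such cultures as URA1. In segregant 27 URA1 read 3.36 and 0.16, in segregant 43 it read -0.08 and 3.16, and in segregant 44 it read 0.33 and 3.45. In segregants 60 and 62 it read 2.70 and -0.21, and 3.25 and -0.42. In each pair 1 array read as in low URA3 segregants and the other as in the pool, in both dye orientations, and the mean falls between. With such cultures left out gene by gene, the class difference was 2.70 for URA1 (SE 0.10), or 89.1% of the parental difference, and 0.68 for URA2, or 56.6%.

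**Figure D4:**
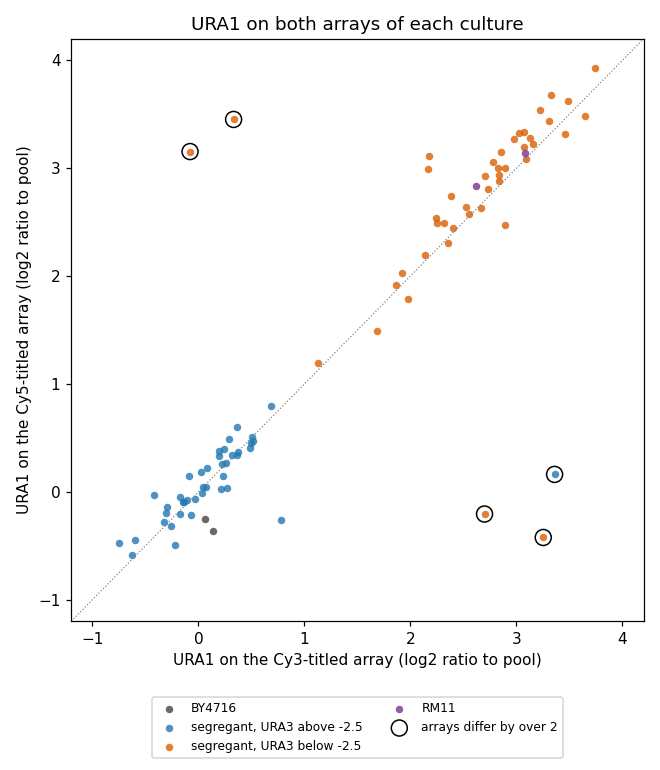
URA1 on the Cy5-titled array against the Cy3-titled array of each culture, both as log2 ratio to the pool. Most cultures lie near the dotted line of equal values, and the 5 ringed cultures differ by over 2 between arrays.

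The URA3 classes were spread over the classes of other segregating genes. Segregants with LEU2 above -2.5 numbered 22 with URA3 above and 20 with URA3 below, and those with LEU2 below numbered 20 and 24. For STE3, a gene of mating type alpha, the counts were 21 and 27 above, and 21 and 17 below. None of the genes next to URA3 on its chromosome was called lower with it. Of the 20 measured neighbours, 10 on each side, 1 was called, NPP2, higher by 0.16 in the low URA3 class (SE 0.03, adjusted p = 8.86e-05). The nearest on each side, GEA2 and TIM9, differed by -0.13 (adjusted p = 0.383) and -0.18 (adjusted p = 0.240). Of all genes on chromosome V, 3 of 261 were called, against 39 of 5290 on other chromosomes.

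The lists of pyrimidine uptake and salvage, of thymidylate and deoxynucleotide synthesis and of PRPP synthesis held no gene called between the classes. Over all 5551 genes, 33 or 0.594% were called higher and 9 lower, so lists this short would hold few or no called genes. Of 13 genes of pyrimidine uptake and salvage, 0 passed, with a median log2 difference of -0.01, against 0.00 over all genes tested. FUR4, the uracil permease gene, had the highest difference in that list at 0.23 (SE 0.08, adjusted p = 0.243). Also 0 of 7 passed for thymidylate and deoxynucleotide synthesis, with a median of -0.03, and 0 of 5 for PRPP synthesis, with a median of -0.01. Between parents, none of 6 tested uptake and salvage genes was called, against 591 or 18.2% of all genes called higher and 278 lower. RNR2, a ribonucleotide reductase subunit gene, was higher in RM11 by 0.54 on the log2 scale (limma adjusted p = 0.0161), as was PRS3, a PRPP synthetase subunit gene, by 0.37 (adjusted p = 0.0414). Between classes, 0 of 13 general stress, 0 of 9 branched-chain synthesis and 0 of 4 arginine synthesis genes were called, at medians of -0.07, 0.17 and 0.14.

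The genes whose pattern was most like URA1 and URA4 over 86 segregants were, for both, RIB4, the other of the pair, MDH2, URA2 (83 segregants) and YHM2. Because the segregants fall into separate clusters, likeness is given within each class, as a description of values that share arrays. URA1 and URA4 had r of 0.483 in the 44 segregants below and 0.629 in the 42 above, and 0.254 in the 41 above without segregant 27. URA4 and RIB4, the lumazine synthase gene of riboflavin synthesis, had r of 0.679 below and 0.810 above, and 0.384 above without that segregant. URA1 and RIB4 had 0.565 and 0.363, and the sign turned above without it, to -0.435. URA1 and MDH2, the cytosolic malate dehydrogenase gene, had 0.182 and 0.166, and -0.468 above without it. For these 4 pairs, r above -2.5 was lower without segregant 27. URA4 and MDH2 had -0.213 below and 0.492 above, and -0.147 above without that segregant. URA4 and URA2 had 0.305 and 0.316, and -0.0122 above without it. URA1 and URA2 had 0.162 and 0.531, and 0.395 above without it. With YHM2, URA1 had 0.399 and 0.279, and 0.113 above without it. URA4 and YHM2 had 0.534 and 0.207, and -0.0790 above without it.

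RIB4 ranged from 0.88 to 2.31 with a median of 1.41 in the class with low URA3, and from -0.35 to 1.78 with a median of -0.00226 above. Its highest value above, 1.78, was again that of segregant 27, and without it the highest was 0.37. The class difference was 1.46 on the log2 scale (SE 0.08, limma adjusted p = 1.40e-28). MDH2 ranged from -0.09 to 3.29 with a median of 1.96 below and from -0.92 to 2.66 above, the last in segregant 27 and 1.19 without it, with a difference of 1.70 (SE 0.16, adjusted p = 6.06e-15). MDH2 thus had the larger difference but overlapping classes. In RM11 against BY4716, RIB4 was higher by 1.23 (adjusted p = 0.000646) and MDH2 by 1.80 (adjusted p = 0.0472). YHM2, a mitochondrial carrier gene, differed by 0.30 between the classes (adjusted p = 5.02e-05). By the mean of both within-class r, the genes most like URA1 were PRS3 at 0.640, TIF4631 and YGR054W at 0.635, RRS1 at 0.631 and RPS22A at 0.610. Without segregant 27 the mean for these 5 genes was from 0.672 for TIF4631 to 0.743 for PRS3.

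PPR1 has a narrow range, but several members rose or fell with it. In a fit with the URA3 class, URA7 rose by 1.13 per log2 unit of PPR1 (SE 0.25, limma adjusted p = 0.000235), URA5 by 0.51 (SE 0.12, adjusted p = 0.000546) and URA6 by 0.37 (SE 0.13, adjusted p = 0.0285). URA10 fell by 1.52 (SE 0.53, adjusted p = 0.0217). Of the known targets of Ppr1, URA1 and URA4 had no called slope, with 0.51 for URA1 (SE 0.31, adjusted p = 0.211) and 0.04 for URA4 (SE 0.20, adjusted p = 0.904). For URA3 the slope was 0.12 (SE 0.32, adjusted p = 0.809). URA3 also set the class term of this fit, and the lower class reads like RM11, which lacks the gene. That slope therefore cannot show whether URA3 follows PPR1. The slope of URA1 was about as large as that of URA5, with a larger SE. URA2 had 0.46 (SE 0.21, adjusted p = 0.0816). Called slopes were common in the whole table, with 995 positive, or 17.9% of 5551, and 747 negative, or 13.5%. The genes most like PPR1 over the 86 segregants were RRP12, at r of 0.652, NUP100, DRN1, FYV7 and TRZ1, the last at 0.637.

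These slopes changed with the arrays used, the scaling and a term for general stress genes. With PPR1 and the other gene read on different arrays, URA7 kept its call in both directions (adjusted p = 0.0254 and 0.00329), URA5 lost it in 1 (adjusted p = 0.103), URA6 lost it in 1 (adjusted p = 0.356), and URA10 lost it in both (adjusted p = 0.0988 and 0.0910). With the mean of 13 general stress genes as a further term, a choice made after seeing the data, URA7 had a slope of 0.40 (adjusted p = 0.240), URA5 0.29 (adjusted p = 0.127), URA6 0.11 (adjusted p = 0.699) and URA10 -0.39 (adjusted p = 0.714). With arrays centred on their median, URA6 (adjusted p = 0.129) and URA10 (adjusted p = 0.123) were not called, nor was URA6 under quantile normalization (adjusted p = 0.0767). With the stress term none of these 4 was called, while URA4 had a called slope of -0.53 (SE 0.18, adjusted p = 0.0422). No gene of 5551, or 0%, was called for a difference between the classes in its slope on PPR1, with 365 at an unadjusted p under 0.05 in limma. For URA4 the difference in slope was 1.07 (SE 0.41, unadjusted p = 0.0102, adjusted p = 0.722), and it ranged from 0.08 to 1.18 over the alternatives. The absence of calls does not show equal slopes.

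The mean of the 13 general stress genes, among them HSP12 and CTT1, was used as a score of general stress expression. Segregants differ in genotype, so inherited and growth differences in this score cannot be told apart. The score averaged -0.19 in the class with low URA3 (SD 1.14, n = 44) and -0.12 in the other (SD 0.914, n = 42). URA10 rose with it by 0.49 per log2 unit (SE 0.09, limma adjusted p = 1.19e-06). URA7 fell by 0.33 (SE 0.04, adjusted p = 5.17e-13), URA1 by 0.22 (SE 0.05, adjusted p = 0.000211) and URA4 by 0.19 (SE 0.03, adjusted p = 1.14e-07). URA5, URA6 and URA2 fell by 0.11 each, with adjusted p of 1.45e-06, 8.52e-06 and 0.00966, and PPR1 fell by 0.08 (adjusted p = 6.12e-05). URA3 had a slope of 0.03 (adjusted p = 0.698). URA10 thus went opposite to its isozyme URA5. Slopes of either sign were called for a large share of the 5539 genes tested, 21.9% positive and 32.3% negative.

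**Figure D5:**
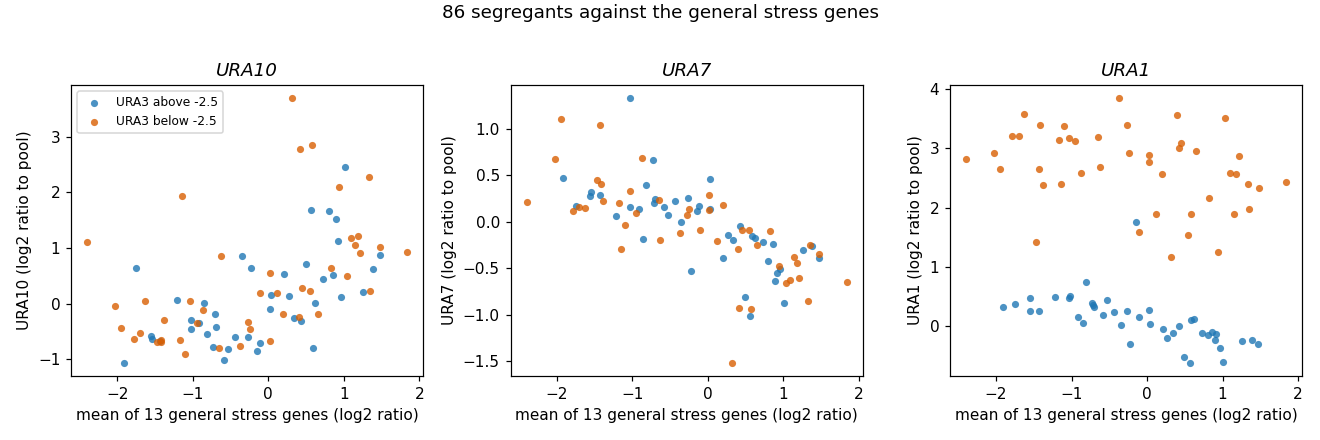
Log2 ratio to the pool of URA10, URA7 and URA1 in 86 segregants against the mean log2 ratio of 13 general stress genes, coloured by URA3 class. Per log2 unit URA10 rises by 0.49, URA7 falls by 0.33 and URA1 falls by 0.22, each fitted as 1 slope for both classes.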

How the data were processed

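The deposited values are the authors' log ratios of culture over pool, read here as log2 ratios; they were already centred per array and turned to 1 direction for both dyes. How images were scanned, filtered and normalised is not given in the sources used here. Of 7085 probes, 5645 had 1 symbol and 1440 had none. Probes of a gene were averaged (40 genes had 2), then both arrays of a culture.

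Differences, slopes and the variance test used limma 3.58.1 in R 4.3.3 over all genes, with Benjamini-Hochberg adjustment and a threshold of 0.05. Genes needed all 8 parental arrays, or values in 80 percent of segregants. Steps were tested on simulated data. Named genes were all members, up to 3 called genes a list, the 5 genes most like URA1, URA4 and PPR1, and the nearest neighbours of URA3; list extremes, called list genes between parents, and the ranges of RIB4 and MDH2 were added after their values were seen. Members, lists and the stress term were chosen with earlier results of these data known. Alternatives were other scalings, 1 dye alone, a culture left out, the culture number as a block, and filters on arrays. Promoter motifs were not searched, and 1 further gene list is not reported here.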

Additional observations from a re-analysis of the deposited data

How the results depend on the processing

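With 2 cultures a parent, the parental calls and the variance test depend on single cultures, and with 1 left out the lone culture is assumed to vary like the other strain. Deviations from the strain means correlated with 0.189 between cultures of the same number, over 2 pairs, too few to tell whether the numbers pair the cultures. With the replicate block 830 genes were called between parents against 869 without it, and among the members it changed the call of URA6 only. The cause of the changes that follow was not tested.

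Between parents, 869 calls became 533 on Cy3-titled arrays and 199 to 1797 with a culture left out. Calls against the pool were 873 under quantile normalization, 13 on Cy5-titled arrays, 3 with 1 array a culture and 0 to 1396 with a culture left out. Variance calls, 1908, became 626 on Cy3-titled and 3439 on Cy5-titled arrays, and 137 to 3730 with a culture left out. Class calls, 42, became 27 and 25 on Cy3 and Cy5 arrays, and 25 and 23 with class and response from different arrays. Calls of the low class against RM11, 48, became 4 under quantile normalization and 17 to 53 with a culture left out, and those of the high class against BY4716 became 148, and 0 to 1. PPR1 slopes, 1742, became 700 and 1016 on different arrays and 484 with the stress term.

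Changes of sign among members were in uncalled values, apart from URA4 with the stress term. Against the pool, URA1 was 0.0985 and PPR1 0.126 on Cy3 arrays, URA2 0.0611, URA3 0.0793 and URA5 0.0110 on Cy5 arrays, and PPR1 ranged from -0.0619 to 0.0405 with a culture left out. Between parents, URA7 was -0.0175 and PPR1 0.0265 on Cy5 arrays, and with a culture left out PPR1 ranged from -0.0931 to 0.00925 and URA7 from -0.0592 to 0.300. Against RM11 under quantile normalization, URA1 was 0.608, URA2 0.249, URA4 0.315 and URA5 0.0397, and with a culture left out URA4 ranged from -0.291 to 0.0217 and URA5 from -0.143 to 0.0619. Against BY4716, PPR1 ranged from -0.00157 to 0.101 with a culture left out. Between classes, PPR1 was 0.00565 on Cy3 arrays and URA7 0.00681 with the class from Cy5 arrays. The PPR1 slope of URA4 was -0.0840 with median centring, -0.22 with quantile normalization, -0.29 with PPR1 from Cy3 and -0.53 (called) with the stress term. That of URA3 was -0.00229 with quantile normalization and -0.0942 with PPR1 from Cy5, and that of URA1 -0.0548 with the stress term. The slope difference of URA5 was -0.0252, -0.21 and -0.56 with median centring, quantile normalization and PPR1 from Cy3, and that of URA1 was 0.90 with PPR1 from Cy5. With median centring, positive and negative slopes on PPR1 were 743 and 630, and those on the stress mean 1391 and 1530.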
